A study of Mus musculus with 4 samples.

Results

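The genes described here are the BCL2 family, the caspases, the inhibitor of apoptosis proteins (IAPs) and the p53 genes that feed into them, read in mouse mammary tumours that lack or carry Nr1d1. The members are every gene symbol in the count tables that starts with Bcl2, with Casp and a digit or with Birc and a digit, together with 18 named genes from Bax to Mdm4. The rule found 47 of 23282 rows, and it used no measured value. Tumours came from female FVB mice of 14 weeks that all carried PyMT, the polyoma virus middle T antigen, an oncogene that drives mammary tumours. The 2 libraries labelled Nr1d1-/- were compared with the 2 labelled Nr1d1+/+. Nr1d1 encodes the circadian repressor REV-ERBα. The labels do not say which promoter drives PyMT, which part of Nr1d1 the null allele lacks, or whether the replicates came from different mice. The p-values therefore reflect the spread among these 4 libraries alone, and that spread may be technical.

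Apoptosis is controlled at the mitochondrion by the balance between BCL2-type survival proteins, the BH3-only proteins that bind them, and the effectors BAX and BAK, which open pores in the outer membrane when released. Cytochrome c then assembles APAF1 and caspase-9 into the apoptosome, whereas death receptors at the cell surface act through caspase-8. Both routes activate the executioner caspases, which the IAP XIAP blocks. In the mammary gland, these proteins are known for the removal of milk-producing cells after weaning and for clearing cells from the lumen of ducts and early lesions.

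Libraries held 15905404 and 18017279 counts in Nr1d1-/- replicates 1 and 2, against 19116279 and 17768820 counts in Nr1d1+/+ replicates 1 and 2. All levels below are in CPM, a count scaled to the size of its library, with TMM factors that were 0.859 and 0.895 in Nr1d1-/- libraries and 1.11 and 1.18 in Nr1d1+/+ libraries. Nr1d1 itself (chr11:98767932-98775333, minus strand, GRCm38) stood at 10.6 and 12.8 CPM in Nr1d1-/- libraries, against 20.1 and 10.3 CPM in Nr1d1+/+ libraries. Its groups overlapped (log2 fold -0.37, SE 0.35, adjusted p 0.436), and because the deleted part is not given, a count over the whole gene does not check the labels. Ribosomal RNA (Rn45s) took 4.36% and 7.64% of the counts in Nr1d1-/- libraries, against 2.94% and 3.39% in Nr1d1+/+ libraries. Skeletal muscle genes were high in Nr1d1-/- replicate 1 alone, with a summed level over 10 markers of 742 CPM, against 3.78 CPM in Nr1d1-/- replicate 2 and 3.40 and 2.39 CPM in Nr1d1+/+ libraries.

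Of the 47 genes, 43 had enough counts for a test, and 20 of them differed between the genotypes. The genes higher in Nr1d1-/- tumours included Cflar, Casp4, Bax, Bcl2, Bcl2a1b, Bad, Bcl2l1 and Bak1. The genes lower in Nr1d1-/- tumours were Bmf, Xiap, Casp8ap2, Birc3, Birc6, Casp2, Birc2, Mdm4, Bcl2l13, Bcl2l2 and Mdm2. Calls required an adjusted p under 0.05 in edgeR's quasi-likelihood test, with Benjamini-Hochberg adjustment over all 14801 tested genes. The 9 higher genes were 20.9% of the 43, against a background of 16.5% of all tested genes, and the 11 lower genes were 25.6%, against 17.3%. In either direction the share was 46.5%, against 33.9% of all tested genes. The median log2 fold (Nr1d1-/- over Nr1d1+/+) was -0.18 over the 43 genes and -0.01 over all tested genes. Nr1d1-/- libraries both lay above both Nr1d1+/+ libraries for 16 of the 43 genes and below them for 19, against 34.4% and 36.2% of all tested genes. Without Nr1d1-/- replicate 1, the library with muscle transcripts, 7 members were higher and 8 lower, against 12.0% and 13.2% of the genes tested there. Without Nr1d1+/+ replicate 2 the counts were 5 and 5, against 6.75% and 7.62%. Scaling by library size only gave 7 higher and 16 lower members, against 8.65% and 29.8%. In bulk tumour, fewer cells of a type and less RNA per cell cannot be told apart.

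**Figure D1:**
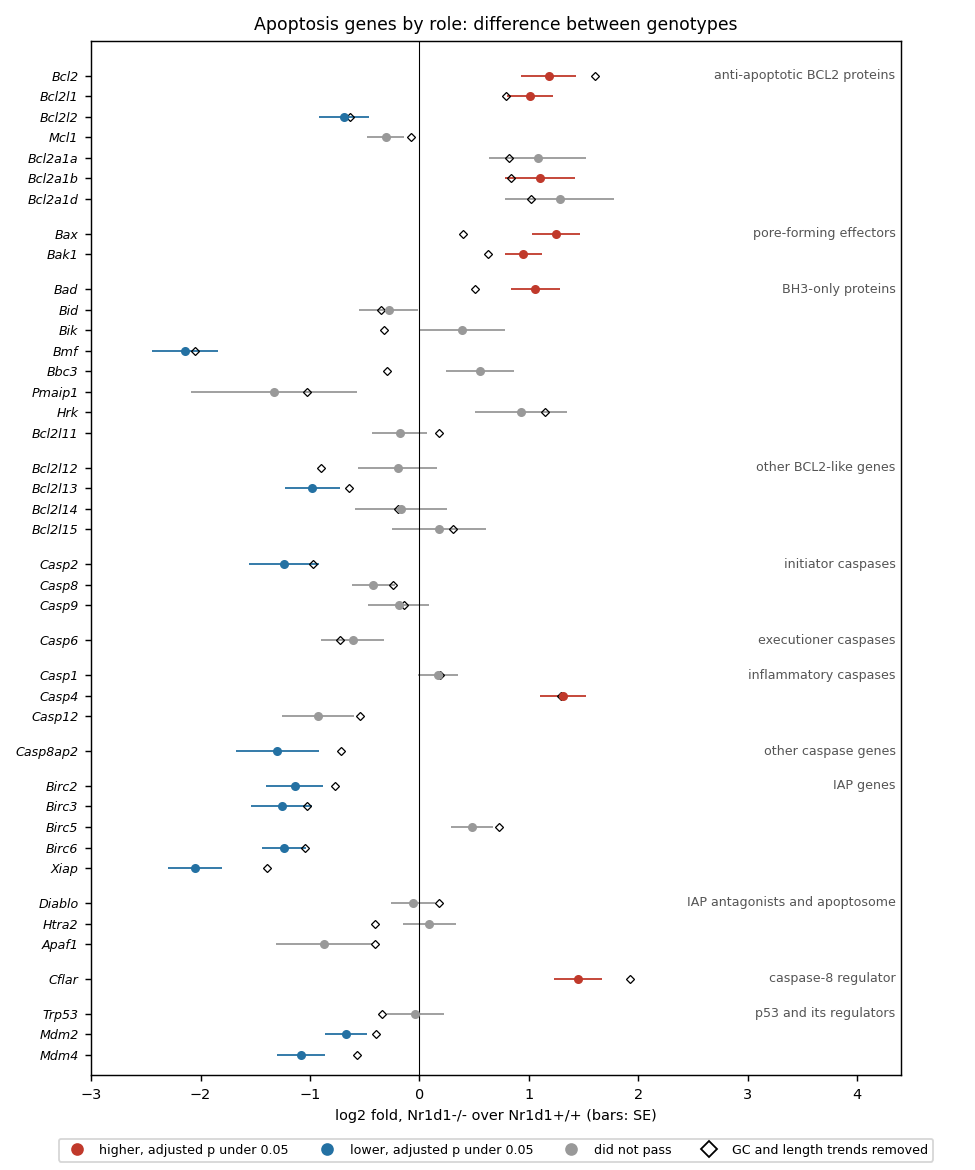
Log2 fold (horizontal axis, Nr1d1-/- over Nr1d1+/+) of 41 of the 43 tested genes grouped by role, with bars for 1 SE on each side; red points were higher and blue points lower at an adjusted p under 0.05, grey points did not pass, and open diamonds show the fold after GC and length trends were removed. Both pore-forming effectors lie to the right of 0, 4 of the 5 IAP genes lie to the left, and Bmf and Xiap stand at -2.14 and -2.05.

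By role, the survival proteins had 3 higher and 1 lower of 7 tested, and both effectors were higher. Of the 8 BH3-only genes, Bad was higher and Bmf was lower. Of the 5 tested IAP genes, 4 were lower, and of the 3 p53 genes, Mdm2 and Mdm4 were. Among the caspases described here, Casp4 was higher and Casp2 was lower. Over all tested genes the shares were 16.5% higher and 17.3% lower. These counts describe small groups, were not tested as groups, and depend on the processing. Without GC and length trends the survival proteins had 2 higher, the effectors 1 of 2 higher (Bak1), and the IAP genes 1 higher (Birc5) and 3 lower, and neither Mdm2 nor Mdm4 passed.

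Short stretches ahead of the transcription start are shown for the called genes that hold the letters AGGTCA, the half-site that REV-ERB receptors are known to bind, or CACGTG, the E-box bound by the clock activators. Windows were RefSeq promoter sequences of GRCm38.p6, from 250 bases before to 50 bases after the start, and 41 of the 47 genes had at least 1. Each line reads 5′ to 3′ on the gene's strand, and capitals mark the motif or, for AGGTCA, its reverse complement TGACCT.
Bmf chr2:118549801-118549846, minus strand: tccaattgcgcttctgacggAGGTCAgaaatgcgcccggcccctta
Bcl2l2 chr14:54883221-54883266, plus strand: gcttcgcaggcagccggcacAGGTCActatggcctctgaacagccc
Bcl2l13 chr6:120836061-120836106, plus strand: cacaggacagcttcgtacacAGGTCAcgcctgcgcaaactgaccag
Casp8ap2 chr4:32615221-32615266, plus strand: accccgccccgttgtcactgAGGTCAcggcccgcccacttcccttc
Mdm4 chr1:133025486-133025531, minus strand: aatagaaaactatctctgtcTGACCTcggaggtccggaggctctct
Bcl2l1 chr2:152828568-152828613, minus strand: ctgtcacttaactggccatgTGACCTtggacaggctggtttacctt
Bax chr7:45466899-45466927, minus strand: ctgcagcgagcgatgatgatCACGTGact
The first base of the motif lies 140 bases before the start in Bmf, 104 in Bcl2l1 and 9 in Bax. For Bcl2l1, Mdm4 and Xiap the start used lies inside the annotated gene, downstream of its 5′ end. Bcl2l13 holds a further match, TGACCT, 14 bases before the start, which is not shown. Bax holds a further CACGTG, after the start, which is also not shown. AGGTCA, searched on both strands, was found for 6 of the 11 lower genes (those shown and Xiap, whose match lies after the start), 1 of the 8 higher genes with a window, Bcl2l1, and 1 of the 19 windowed genes that did not pass, Bcl2l15. Over all 27025 genes with a window the share was 18.1%. CACGTG was found for 1 of the 8 higher genes, Bax, for none of the 11 lower genes and for 3 of the 19 others, Bbc3, Casp1 and Trp53, against 8.09% of all genes. GGGCGG, a GC box, was found for 4 of 8 higher and 9 of 11 lower genes, against 38.2% of all genes, and TATAAA for 1 in each set, against 15.7%. The 4 motifs were chosen with the results known, genes with several windows have more chances of a match, and a match is a description of letters, not a bound site.

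Among the survival proteins, which hold BAX and BAK in check, the founding member and its closest relative were higher in Nr1d1-/- tumours. Bcl2 had 64.5 and 48.1 CPM in Nr1d1-/- libraries, against 29.6 and 20.2 CPM in Nr1d1+/+ libraries. Every Nr1d1-/- value was above every Nr1d1+/+ value, and the log2 fold was 1.18 (SE 0.25, adjusted p 0.00954). Without Nr1d1+/+ replicate 2, the lower of its pair, the fold was 0.90 and missed the threshold (adjusted p 0.0649). Bcl2l1, which encodes BCL-XL, had 114.0 and 83.8 CPM in Nr1d1-/- libraries, against 53.2 and 44.9 CPM in Nr1d1+/+ libraries. The groups did not overlap (log2 fold 1.01, SE 0.21, adjusted p 0.00878), and leaving out Nr1d1+/+ replicate 2 gave 0.87 (adjusted p 0.0577). Both genes stayed called when GC and length trends were removed, with folds of 1.60 and 0.79. Bcl2 shares 6.09% of its exon bases with an antisense transcript, and the use of strand in counting was not given in the sources used here.

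Bcl2l2 and Mcl1, also survival proteins, stood on the other side of 0. Bcl2l2, which encodes BCL-W, shares 14.56% of its exon bases with the gene model Gm20521 on its strand. It had 16.5 and 14.9 CPM in Nr1d1-/- libraries, against 23.6 and 27.1 CPM in Nr1d1+/+ libraries. The groups did not overlap, but the call was at the edge (log2 fold -0.69, SE 0.23, adjusted p 0.0479). It was lost in each of the 4 fits that left out 1 library, at adjusted p values of 0.0733 and 0.113 without Nr1d1-/- replicates 1 and 2 and of 0.092 and 0.237 without Nr1d1+/+ replicates 1 and 2, in DESeq2 (0.0607), and without the GC and length trends (-0.63, 0.0756). Mcl1, whose protein is short-lived and blocks BAK and the BH3-only protein BIM, had 108.4 and 127.8 CPM in Nr1d1-/- libraries, against 143.8 and 148.4 CPM in Nr1d1+/+ libraries. Its groups also did not overlap, and the difference did not pass (log2 fold -0.31, SE 0.17, adjusted p 0.204). With scaling by library size only, which shifts the median of all genes to -0.38, Mcl1 reached -0.69 and passed (adjusted p 0.0161).

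Bcl2a1, the survival gene of white blood cells, is present in the mouse as several nearly identical copies on chromosome 9. Their coding sequences are shown to make the likeness visible: capitals mark the 6 positions of the first 90 coding bases at which Bcl2a1a, Bcl2a1b and Bcl2a1d are not all alike (GENCODE M21 transcripts, GRCm38).
Bcl2a1a: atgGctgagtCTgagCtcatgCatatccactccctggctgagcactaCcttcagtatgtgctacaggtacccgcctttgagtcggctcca
Bcl2a1b: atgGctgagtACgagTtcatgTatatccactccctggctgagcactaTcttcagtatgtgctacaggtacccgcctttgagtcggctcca
Bcl2a1d: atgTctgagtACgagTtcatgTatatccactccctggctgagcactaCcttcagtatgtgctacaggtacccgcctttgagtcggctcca
Over the whole coding length of 516 bases, identity was 97.9% between a and b, 98.6% between a and d and 98.8% between b and d, so counts can be split between copies. The 3 copies summed to 21.3 and 18.7 CPM in Nr1d1-/- libraries, against 7.23 and 11.1 CPM in Nr1d1+/+ libraries. The sum was 2.19-fold higher in Nr1d1-/- libraries, with no overlap. Of the single copies, Bcl2a1b passed, at 13.0 and 11.0 CPM in Nr1d1-/- libraries against 4.63 and 6.56 CPM in Nr1d1+/+ libraries (log2 fold 1.10, SE 0.32, adjusted p 0.0304). Its call held when Nr1d1-/- replicate 2 was left out and was lost without Nr1d1-/- replicate 1 (0.97, adjusted p 0.0885) and without Nr1d1+/+ replicate 1 (0.82, 0.203) or 2 (1.34, 0.0718). It was also lost with library size only (0.71, 0.124) and without the GC and length trends (0.84, 0.0909). Bcl2a1a and Bcl2a1d had folds of 1.08 and 1.28 and did not pass (adjusted p 0.0885 and 0.0804). Bcl2a1b also shares 49.08% of its exon bases with an overlapping gene model on its strand. Bcl2a1c had at most 2 counts in any library, and Bcl2l10, a survival gene of the egg, had none in all 4, so neither was tested.

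Both pore-forming effectors were higher in Nr1d1-/- tumours. Bax had 54.3 and 46.9 CPM in Nr1d1-/- libraries, against 23.8 and 18.8 CPM in Nr1d1+/+ libraries, without overlap (log2 fold 1.25, SE 0.22, adjusted p 0.00459). Bak1, the partner that sits permanently in the outer membrane, had 148.1 and 136.6 CPM in Nr1d1-/- libraries, against 70.9 and 76.4 CPM in Nr1d1+/+ libraries (log2 fold 0.95, SE 0.17, adjusted p 0.00507). Within each genotype the replicates of Bak1 lay close together, and the gap between genotypes was far wider than either pair. Both calls held whichever library was left out. Bax is among the shortest transcripts of the set, at 867 bases, and without the GC and length trends its fold was 0.40 and did not pass (adjusted p 0.191), while Bak1 kept its call at 0.63 (0.032). Bax also shares 22.15% of its exon bases with another gene model on its strand. Bak1 shares 7.42% and 3.31% of its exon bases with gene models named Ggnbp1 on the opposite strand.

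The BH3-only proteins sense damage, starvation or detachment and release the effectors. Bmf, known for cell death on loss of attachment in mammary epithelium, had a fold as low as that of Xiap. It stood at 13.5 and 10.7 CPM in Nr1d1-/- libraries, against 38.8 and 67.2 CPM in Nr1d1+/+ libraries. Even the lower Nr1d1+/+ library was well above both Nr1d1-/- libraries, although the Nr1d1+/+ pair differed between themselves (log2 fold -2.14, SE 0.30, adjusted p 0.00267). The fold ranged from -2.53 to -1.71 as single libraries were left out, always called. Bad, which growth factor signals silence through phosphorylation, went the other way, with 39.8 and 52.3 CPM in Nr1d1-/- libraries against 21.2 and 22.8 CPM in Nr1d1+/+ libraries (log2 fold 1.06, SE 0.22, adjusted p 0.00841). Its groups did not overlap, but without the GC and length trends the fold was 0.51 and did not pass (adjusted p 0.117). Bad shares 21.6% of its exon bases with Gpr137 on the opposite strand.

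The other 6 tested BH3-only genes did not pass. Bcl2l11, which encodes BIM, had 31.3 and 25.6 CPM in Nr1d1-/- libraries, against 26.3 and 38.3 CPM in Nr1d1+/+ libraries, with overlap (log2 fold -0.18, SE 0.25, adjusted p 0.599). Bbc3, the p53 target PUMA, had 12.7 and 9.74 CPM in Nr1d1-/- libraries, against 8.23 and 7.03 CPM in Nr1d1+/+ libraries. Its groups did not overlap but the difference did not pass (log2 fold 0.55, SE 0.31, adjusted p 0.191), and the fold turned to -0.30 without the GC and length trends. Pmaip1, the p53 target NOXA, was near the limit of detection, with 4 and 12 counts in Nr1d1-/- libraries against 38 and 19 counts in Nr1d1+/+ libraries (log2 fold -1.33, SE 0.76, adjusted p 0.207). Hrk, Bik and Bid had folds of 0.93, 0.39 and -0.28 with adjusted p values between 0.121 and 0.458.

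Of the less studied BCL2-like genes, Bcl2l13, a mitochondrial protein that is known as a receptor for the removal of mitochondria, was lower. It had 13.0 and 13.6 CPM in Nr1d1-/- libraries, against 22.8 and 29.6 CPM in Nr1d1+/+ libraries. The groups did not overlap (log2 fold -0.98, SE 0.25, adjusted p 0.0174), and without Nr1d1+/+ replicate 2 the fold was -0.81 and missed the threshold (adjusted p 0.137), as it did without the GC and length trends (-0.64, 0.0839). Bcl2l12, Bcl2l14 and Bcl2l15 did not pass, at adjusted p values from 0.689 to 0.787. Bcl2l14 and Bcl2l15 varied more within genotypes than between them: Bcl2l14 had 15.3 and 40.9 CPM in Nr1d1-/- libraries against 40.0 and 23.3 CPM in Nr1d1+/+ libraries.

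**Figure D2:**
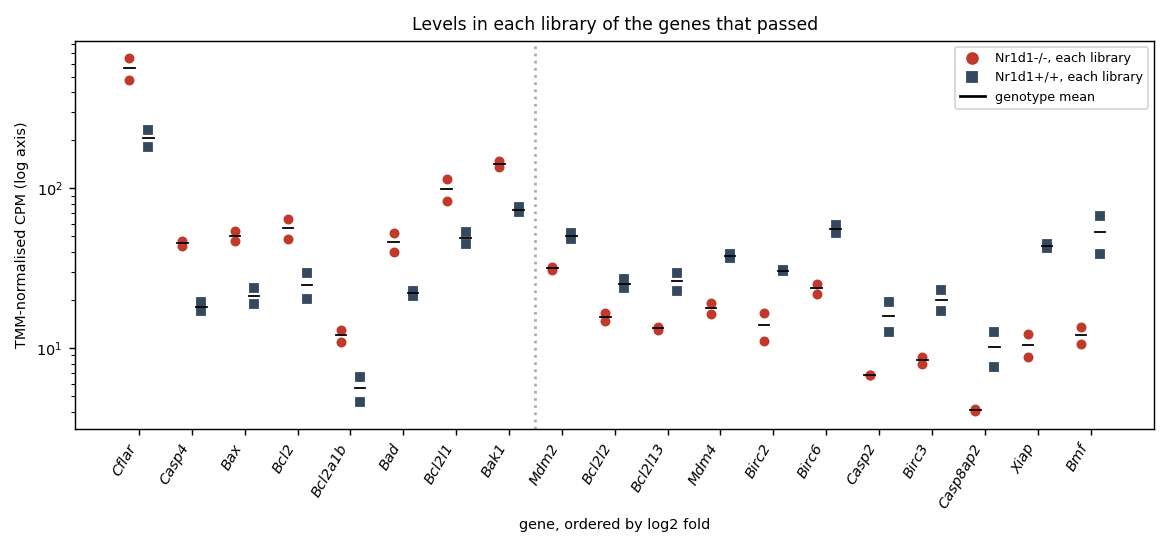
TMM-normalised CPM (log axis) in each library of 19 of the 20 genes that passed, ordered by log2 fold, with Nr1d1-/- libraries as red circles left of Nr1d1+/+ libraries as dark squares and short lines at the genotype means. The genotypes do not overlap for any of these genes, which were chosen for passing on the same values. Over all tested genes, Nr1d1-/- libraries lay above Nr1d1+/+ libraries without overlap for 34.4% and below for 36.2%. Cflar stands highest, between 476 and 650.3 CPM in Nr1d1-/- libraries.

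Initiator caspases start the cascade. Casp8, the initiator of the death receptor route, had 37.7 and 31.2 CPM in Nr1d1-/- libraries, against 47.7 and 44.1 CPM in Nr1d1+/+ libraries. Its groups did not overlap and the difference did not pass (log2 fold -0.42, SE 0.20, adjusted p 0.145). Casp9, the initiator of the mitochondrial route, had 9.37 and 9.36 CPM in Nr1d1-/- libraries, against 11.2 and 10.2 CPM in Nr1d1+/+ libraries (log2 fold -0.19, SE 0.28, adjusted p 0.628). Casp2, which responds to damage during division, did pass, at 6.81 and 6.76 CPM in Nr1d1-/- libraries against 12.6 and 19.4 CPM in Nr1d1+/+ libraries (log2 fold -1.24, SE 0.32, adjusted p 0.0188). Both Nr1d1-/- libraries were low and nearly equal, while the Nr1d1+/+ libraries differed, and without Nr1d1+/+ replicate 2 the Casp2 fold was -0.91 and missed the threshold (adjusted p 0.166). Casp8ap2, a nuclear protein first found by its binding to caspase-8, had 4.17 and 4.03 CPM in Nr1d1-/- libraries, against 7.66 and 12.5 CPM in Nr1d1+/+ libraries (log2 fold -1.30, SE 0.38, adjusted p 0.0286). Its call held without Nr1d1+/+ replicate 1 and was lost without Nr1d1+/+ replicate 2 (-0.92, adjusted p 0.239) and without Nr1d1-/- replicate 1 (0.0549) or 2 (0.0592). Without the GC and length trends neither Casp8ap2 (-0.72, adjusted p 0.172) nor Casp2 (-0.97, 0.0554) passed.

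Casp6, a caspase that acts late in the cascade and cuts nuclear lamins, had a log2 fold of -0.61 (adjusted p 0.132). It passed when Nr1d1-/- replicate 2 was left out (-1.01, adjusted p 0.0358).

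The inflammatory caspases lie together on chromosome 9 and drive pyroptosis and cytokine release. Casp4, the mouse sensor of cytosolic lipopolysaccharide also known as caspase-11, had 43.5 and 46.9 CPM in Nr1d1-/- libraries, against 19.4 and 17.0 CPM in Nr1d1+/+ libraries. The groups were far apart (log2 fold 1.31, SE 0.21, adjusted p 0.00352), and the call held whichever library was left out and without the GC and length trends (1.29). Its neighbour Casp1, the enzyme that matures interleukin-1β, had 62.4 and 65.7 CPM in Nr1d1-/- libraries, against 57.4 and 56.5 CPM in Nr1d1+/+ libraries (log2 fold 0.17, SE 0.18, adjusted p 0.492). Casp12, the next gene along, had 14.1 and 30.7 CPM in Nr1d1-/- libraries, against 47.0 and 38.6 CPM in Nr1d1+/+ libraries (log2 fold -0.93, SE 0.33, adjusted p 0.0595). Casp12 passed in DESeq2 (-0.92, adjusted p 0.0259) and limma-voom (adjusted p 0.0459), so its call depends on the tool. Without Nr1d1-/- replicate 2 the Casp12 fold was -1.61 and passed (adjusted p 0.00422). With scaling by library size only, Casp8 (-0.80), Casp6 (-0.99) and Casp12 (-1.29) also passed on the lower side. Casp14, a caspase of the skin, had at most 3 counts in any library and was not tested.

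Xiap, Birc6, Birc2 and Birc3 were lower in Nr1d1-/- tumours, and the remaining tested IAP gene, Birc5, did not pass. Xiap, the direct inhibitor of caspases, had 8.79 and 12.2 CPM in Nr1d1-/- libraries, against 42.6 and 44.9 CPM in Nr1d1+/+ libraries. Both Nr1d1+/+ libraries were more than 3 times either Nr1d1-/- library (log2 fold -2.05, SE 0.25, adjusted p 0.00207). The fold lay between -2.33 and -1.84 as single libraries were left out and was -1.39 without the GC and length trends (adjusted p 0.00651). Birc6, a very large ubiquitin ligase that blocks caspases and SMAC, had 25.3 and 22.0 CPM in Nr1d1-/- libraries, against 52.4 and 59.1 CPM in Nr1d1+/+ libraries (log2 fold -1.24, SE 0.20, adjusted p 0.00382). Its call held whichever library was left out and without the trends (-1.05). Birc6 shares 3.86% of its exon bases with an antisense transcript.

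Birc2 and Birc3 encode the ubiquitin ligases cIAP1 and cIAP2, which act in TNF receptor signalling, and lie side by side on chromosome 9. Birc2 had 16.6 and 11.1 CPM in Nr1d1-/- libraries, against 30.4 and 30.6 CPM in Nr1d1+/+ libraries (log2 fold -1.14, SE 0.26, adjusted p 0.0117). Birc3 had 8.79 and 8.0 CPM in Nr1d1-/- libraries, against 17.0 and 23.2 CPM in Nr1d1+/+ libraries (log2 fold -1.26, SE 0.28, adjusted p 0.0111). Neither gene's groups overlapped. Without Nr1d1+/+ replicate 2 the Birc3 fold was -1.05 and missed the threshold (adjusted p 0.0912), whereas Birc2 was called whichever library was left out. After removal of the trends Birc3 still passed (-1.03, adjusted p 0.0299) and Birc2 did not (-0.77, 0.063). Birc5, which encodes survivin, a protein of dividing cells needed for chromosome segregation, had 111.9 and 108.3 CPM in Nr1d1-/- libraries, against 89.1 and 69.2 CPM in Nr1d1+/+ libraries. Its groups did not overlap (log2 fold 0.48, SE 0.19, adjusted p 0.0837), and it passed without the trends (0.73, adjusted p 0.0261). Birc7 had 0 counts in all 4 libraries.

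The mitochondrial IAP antagonists and the apoptosome scaffold did not pass. Diablo, which encodes SMAC, had 41.6 and 43.7 CPM in Nr1d1-/- libraries, against 40.6 and 48.1 CPM in Nr1d1+/+ libraries (log2 fold -0.06, SE 0.20, adjusted p 0.844). Htra2, a protease that also removes IAPs, had a fold of 0.09 (adjusted p 0.788). For both genes the genotypes overlapped, and many of their exon bases are shared with other genes, 32.86% with a gene model on the strand of Diablo and 31.01% with Loxl3 opposite Htra2. Apaf1 was low throughout, at 1.90 and 2.42 CPM in Nr1d1-/- libraries against 3.40 and 4.55 CPM in Nr1d1+/+ libraries (log2 fold -0.87, SE 0.44, adjusted p 0.161).

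Cflar, which encodes c-FLIP, the catalytically inactive relative of caspase-8 that controls its activation at death receptors, was among the members with the highest folds. It stood at 650.3 and 476 CPM in Nr1d1-/- libraries, against 231.5 and 182 CPM in Nr1d1+/+ libraries. The lower Nr1d1-/- library was above the higher Nr1d1+/+ library (log2 fold 1.45, SE 0.22, adjusted p 0.00298). Folds were 1.20 to 1.64 as single libraries were left out and 1.92 without the GC and length trends. Counts are per gene, so the long and short forms of c-FLIP were not separated. Relative to Casp8, Cflar stood at 6.78 and 6.0 in Nr1d1-/- libraries, against 1.91 and 1.62 in Nr1d1+/+ libraries, as a ratio of CPM per kilobase of transcript.

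Around this regulator, the list of other death receptor genes, ligands and adaptors had 1 higher and 2 lower of 16 tested. These shares, 6.25% and 12.5%, were below the 16.5% and 17.3% of all tested genes in the reported fit. Without GC and length trends, 2 were higher and 3 lower. Those shares, 12.5% and 18.8%, were above the 11.0% and 11.2% of all genes in that fit. The median log2 fold of the list was -0.04. Tnf, the ligand that gives its name to the family, was at 0.0732 and 0.310 CPM in Nr1d1-/- libraries, against 2.88 and 1.91 CPM in Nr1d1+/+ libraries (log2 fold -3.53, SE 0.81, adjusted p 0.0107). The Nr1d1-/- levels amounted to few reads, since 1 count was 0.0732 CPM in Nr1d1-/- replicate 1 and 0.062 CPM in replicate 2, and without Nr1d1+/+ replicate 1 the call was lost (adjusted p 0.0891). Ripk1, the kinase that relays TNF receptor signals, was lower (log2 fold -0.81, adjusted p 0.0285), and it was not called without Nr1d1+/+ replicate 2 (0.164) or Nr1d1-/- replicate 2 (0.0917). Fadd, the adaptor that brings caspase-8 to death receptors, was higher, at 22.4 and 19.0 CPM in Nr1d1-/- libraries against 12.2 and 11.2 CPM in Nr1d1+/+ libraries (log2 fold 0.82, adjusted p 0.0343). Fadd was called without Nr1d1-/- replicate 2 and not without Nr1d1-/- replicate 1 (0.114) or Nr1d1+/+ replicate 1 (0.129) or 2 (0.193).

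Trp53, the gene of p53, which induces Bax, Bbc3 and Pmaip1, did not differ beyond its spread. It had 92.6 and 66.7 CPM in Nr1d1-/- libraries, against 100.01 and 63.5 CPM in Nr1d1+/+ libraries (log2 fold -0.04, SE 0.26, adjusted p 0.921). The replicates of each genotype differed more than the genotypes did. Its inhibitors were both lower: Mdm4 had 19.3 and 16.4 CPM in Nr1d1-/- libraries, against 38.7 and 36.6 CPM in Nr1d1+/+ libraries (log2 fold -1.08, SE 0.22, adjusted p 0.00746). Mdm2, the ubiquitin ligase of p53 and itself a p53 target, had 30.9 and 32.3 CPM in Nr1d1-/- libraries, against 52.4 and 48.0 CPM in Nr1d1+/+ libraries (log2 fold -0.67, SE 0.19, adjusted p 0.0287). Neither pair of groups overlapped. Mdm4 was called whichever library was left out, whereas Mdm2 missed the threshold each time, at adjusted p values of 0.0778 and 0.0505 without Nr1d1-/- replicates 1 and 2 and of 0.123 and 0.0881 without Nr1d1+/+ replicates 1 and 2. Without the GC and length trends neither passed (-0.57 with adjusted p 0.0837 for Mdm4, -0.40 with 0.157 for Mdm2).

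In the list of p53 target genes outside the members, 3 were higher and 6 were lower of 25 tested (12.0% and 24.0%, against 16.5% and 17.3% of all tested genes), and 16 did not pass; the median log2 fold was -0.40. Zmat3, a p53-induced RNA-binding protein, was higher, with 364.6 and 241.6 CPM in Nr1d1-/- libraries against 97.97 and 48.8 CPM in Nr1d1+/+ libraries (log2 fold 2.05, SE 0.33, adjusted p 0.00362). Trp53inp1, a p53-induced regulator of cell death, was lower (log2 fold -1.22, adjusted p 0.0107), as was Ccng1, cyclin G1 (-1.07, 0.0137). The Trp53inp1 call was lost without Nr1d1+/+ replicate 2 (adjusted p 0.0556). Ddit4, a stress-induced inhibitor of mTORC1, was higher (1.05, 0.013), a call lost without Nr1d1+/+ replicate 1 (0.0607) or 2 (0.0796). Removal of the GC and length trends left 1 higher and 2 lower genes in this list.

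Members also differed in level within a library. Per kilobase of transcript and averaged over all 4 libraries, Cflar stood first at 58.6 CPM, followed by Bak1 at 45.2, Trp53 at 43.2, Bax at 41.4, Casp1 at 40.4 and Mcl1 at 38.7 CPM per kilobase. This order mixes the genotypes. In Nr1d1+/+ libraries Trp53 (43.8), Mcl1 (42.8) and Casp1 (38.1) stood above Cflar (31.5), Bak1 (30.8) and Bax (24.6). In Nr1d1-/- libraries Cflar (85.7), Bak1 (59.6) and Bax (58.3) stood highest. Averaged over all 4 libraries, Apaf1 and Pmaip1 were the lowest of the tested members, at 0.466 and 0.343 CPM per kilobase. Ratios of CPM per kilobase within a library were then formed for pairs chosen after the values were seen. Bax over Bcl2 was 6.98 and 8.09 in Nr1d1-/- libraries, against 6.68 and 7.71 in Nr1d1+/+ libraries, so these ratios overlapped. Both genes were higher in Nr1d1-/- tumours in the reported fit. Without GC and length trends the log2 fold was 0.40 for Bax, which did not pass, and 1.60 for Bcl2. The ratios were formed with those trends left in, so the overlap is a result of that processing. Bak1 over Mcl1 was 1.96 and 1.53 in Nr1d1-/- libraries, against 0.706 and 0.737 in Nr1d1+/+ libraries. For this pair the genotypes were well apart, and such a ratio does not depend on the scaling between libraries. These ratios are descriptions of RNA and not of protein.

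Long transcripts tended to be lower in Nr1d1-/- libraries, over the whole table and among the members. Spearman's rho of log2 fold with transcript length was -0.53 across the 43 members and -0.322 across 14651 tested genes, and with GC content 0.212 and 0.314. These describe genes of the same 4 libraries, which are not independent. Among the members, the median length was 2387 bases for the 9 higher genes, 4642 for the 11 lower genes and 2243 for the others. Cflar and Bcl2 are long, at 6572 and 7191 bases, and were higher all the same, while Birc6 is the longest member at 15768 bases. When smooth trends of GC content and length were removed from each library, 7 members were higher (16.3%, against 11.0% of all genes in that fit) and 4 were lower (9.3%, against 11.2%). The share of lower members was thus above the background in the reported fit and below it without the trends. Genes called either way included Bak1, Bcl2, Bcl2l1, Casp4 and Cflar on the higher side and Birc3, Birc6, Bmf and Xiap on the lower side. The part of length or GC content in the other 10 calls was not tested further.

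**Figure D3:**
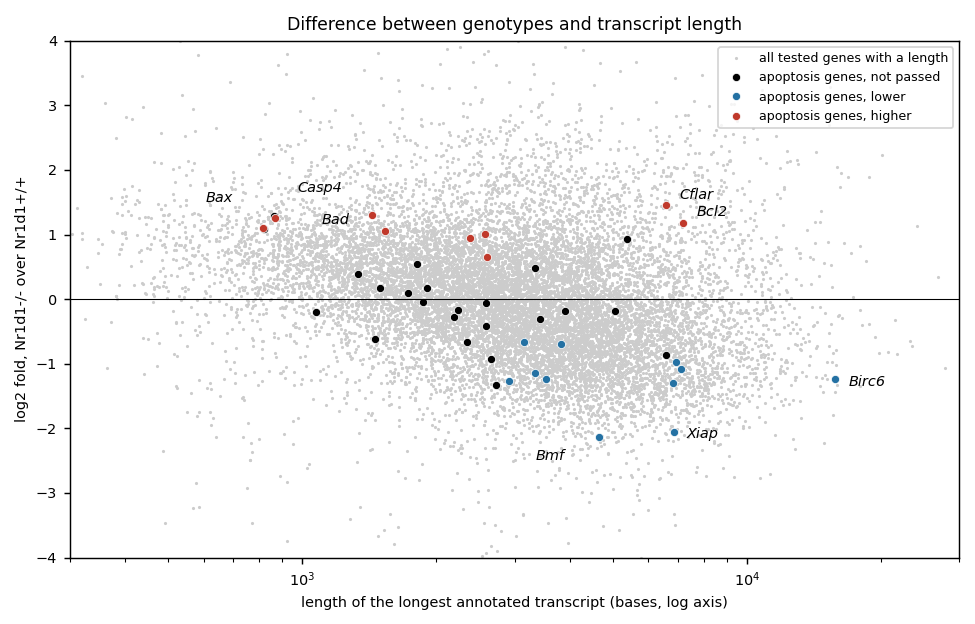
Log2 fold (vertical axis, Nr1d1-/- over Nr1d1+/+) against the length of the longest annotated transcript in bases (log axis), for all tested genes with a length in grey and the 43 apoptosis genes in red (higher), blue (lower) and black (not passed). The grey cloud tilts downward with length, Bax and Bad lie at its short end, and Cflar and Bcl2 lie above 0 among the long transcripts.

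**Figure D4:**
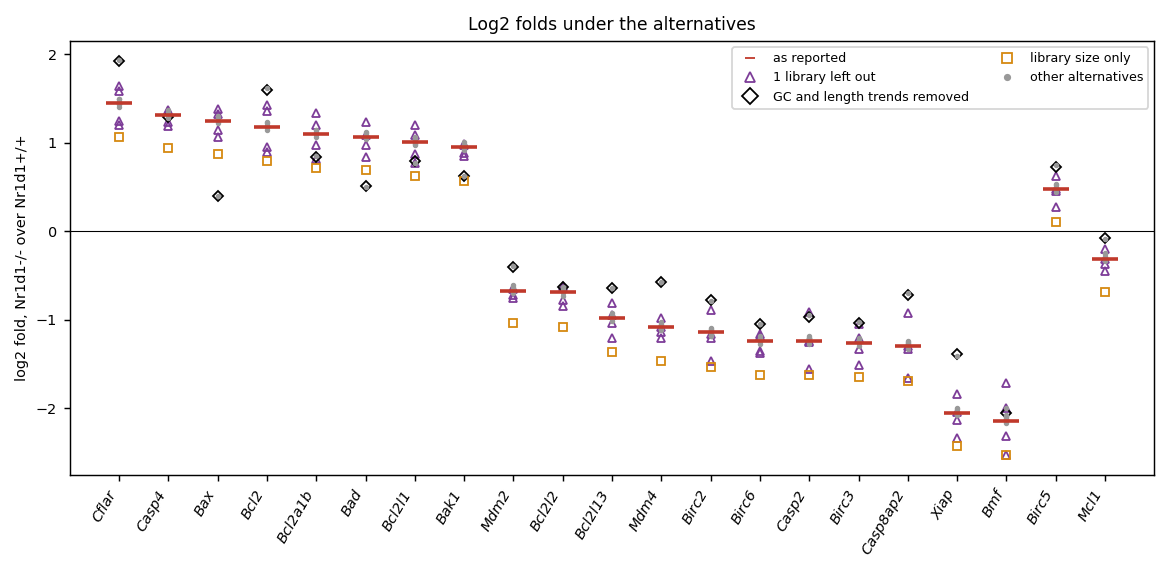
Log2 fold (vertical axis, Nr1d1-/- over Nr1d1+/+) of 19 of the 20 genes that passed and of Birc5 and Mcl1, as reported (red dash) and under each alternative (symbols in the legend). None of the 19 changes sign, and Bax and Bad show a wide gap between the reported fold and the fold without GC and length trends, at 1.25 and 0.40 for Bax.

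The nearby steps of cell death were read from lists of related genes, of which 4 had calls on both sides. Of 21 tested BCL2-related genes outside the rule, 4 were higher (19.0%) and 2 were lower (9.52%), with a median log2 fold of -0.08. The shares over all tested genes were 16.5% higher and 17.3% lower. Without GC and length trends, 1 was higher and 1 was lower (4.76% each, against 11.0% and 11.2% of all genes in that fit). Bfar, an anti-apoptotic protein of the endoplasmic reticulum, had 122.4 and 104.6 CPM in Nr1d1-/- libraries, against 51.0 and 43.0 CPM in Nr1d1+/+ libraries (log2 fold 1.27, SE 0.19, adjusted p 0.00298). Bok, a further pore-forming relative of BAX and BAK, had 5.20 and 4.22 CPM in Nr1d1-/- libraries, against 0.993 and 1.44 CPM in Nr1d1+/+ libraries (log2 fold 1.94, SE 0.47, adjusted p 0.0142). Bok lost its call without Nr1d1+/+ replicate 1 (adjusted p 0.109) or 2 (0.0676). Vdac1, the channel of the outer mitochondrial membrane, was lower (log2 fold -0.94, adjusted p 0.0134), and narrowly missed the threshold without Nr1d1+/+ replicate 1 (0.0538) or Nr1d1-/- replicate 2 (0.0528).

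Among 20 tested caspase substrates, nucleases and cytochrome c genes, 3 were higher and 3 were lower (15.0% each). The shares of all tested genes were 16.5% and 17.3%, and the list's median log2 fold was 0.03. Rock1, the kinase that caspases cut to drive membrane blebbing, had 25.1 and 29.1 CPM in Nr1d1-/- libraries, against 94.9 and 102.8 CPM in Nr1d1+/+ libraries (log2 fold -1.86, SE 0.19, adjusted p 0.00138). Sept4, whose ARTS isoform is known to antagonise XIAP, was higher (log2 fold 1.53, SE 0.31, adjusted p 0.00731). Both held whichever library was left out.

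In the necroptosis and pyroptosis list, 4 of 12 tested genes were higher (33.3%, against 16.5% of all tested genes). Its median log2 fold was 1.04. Pycard, the ASC adaptor that links inflammasome sensors to caspase-1, had 97.8 and 58.5 CPM in Nr1d1-/- libraries, against 24.8 and 26.6 CPM in Nr1d1+/+ libraries (log2 fold 1.60, SE 0.26, adjusted p 0.00363). Gsdma, a pore-forming gasdermin of skin, had 6.59 and 2.48 CPM in Nr1d1-/- libraries, against 0.331 and 0.383 CPM in Nr1d1+/+ libraries (3.62, SE 0.73, 0.0074). Nlrp1a, an inflammasome sensor, owed its call to 1 library: it had 31.4 and 7.57 CPM in Nr1d1-/- libraries, against 5.58 and 6.12 CPM in Nr1d1+/+ libraries (1.72, 0.0434). Without Nr1d1-/- replicate 1 the Nlrp1a fold was 0.37 (adjusted p 0.514), and without Nr1d1+/+ replicate 1 or 2 the adjusted p was 0.114 or 0.0987.

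**Figure D5:**
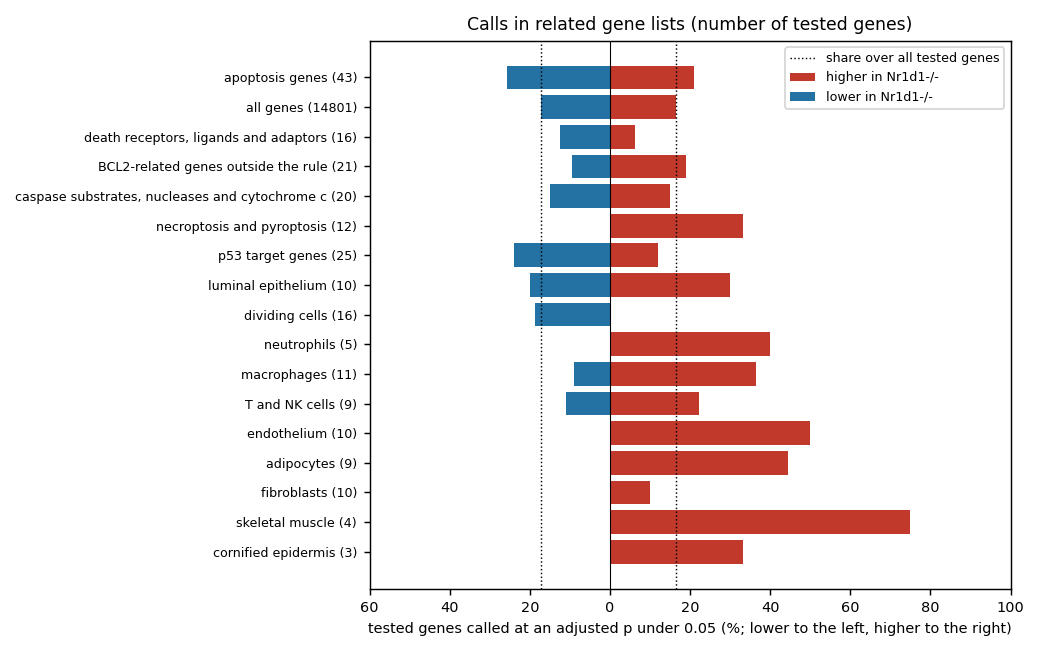
Share of tested genes called lower (left, blue) and higher (right, red) in Nr1d1-/- tumours, in percent, for the apoptosis genes, the related pathway lists and the marker lists of cell types with at least 3 tested genes (number tested in parentheses); dotted lines mark the shares over all tested genes, 17.3% lower and 16.5% higher. The apoptosis genes, at 25.6% lower and 20.9% higher, lie beyond both lines in the reported fit, and the necroptosis and pyroptosis list lies beyond the dotted line on the higher side.

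Some markers of other cells also differed between the genotypes, beside 16.5% higher and 17.3% lower over all tested genes. Macrophage markers had 4 higher and 1 lower of 11 tested, and their summed level was 499.5 and 651 CPM in Nr1d1-/- libraries, against 346 and 433 CPM in Nr1d1+/+ libraries. C1qa, a complement gene of macrophages, had 90.2 and 130.9 CPM in Nr1d1-/- libraries, against 28.1 and 29.7 CPM in Nr1d1+/+ libraries (log2 fold 1.94, SE 0.22, adjusted p 0.00201). Neutrophil markers had 2 higher of 5 tested, out of 9 present, with Camp at 0 in all libraries. They summed to 15062 and 11429.6 CPM in Nr1d1-/- libraries, against 8391 and 6562 CPM in Nr1d1+/+ libraries. This neutrophil list sum was above that of the luminal markers in every library and is not read as an amount of neutrophils. The part of its single genes, among them S100a8, S100a9 and Lcn2, is not given here. Luminal markers had 3 higher and 2 lower of 10 tested and a median log2 fold of 0.13. Without GC and length trends the median was -0.42, with 1 higher. Their sum, carried by abundant keratins, was 10085 and 9361 CPM in Nr1d1-/- libraries, against 6597 and 5618 CPM in Nr1d1+/+ libraries, so the defining keratins of the labelled tissue were present in all 4 libraries.

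Endothelial markers had 5 higher of 10 tested, and 4 without GC and length trends. Adipocyte markers had 4 higher of 9, and 1 without the trends. The adipocyte sums were 198 and 131 CPM in Nr1d1-/- libraries, against 43.9 and 79.1 CPM in Nr1d1+/+ libraries. T and NK cell markers were low, at 25.3 and 25.1 CPM in Nr1d1-/- libraries against 17.7 and 20.9 CPM in Nr1d1+/+ libraries, with 2 higher and 1 lower of 9 tested. Markers of dividing cells had 3 lower of 16 tested (18.8%, against 17.3% of all tested genes). Their median log2 fold was -0.48, and -0.10 without GC and length trends. Their sums were 616 and 521 CPM in Nr1d1-/- libraries, against 639 and 827 CPM in Nr1d1+/+ libraries. Bub1b, a spindle checkpoint kinase, was lower (log2 fold -1.49, SE 0.30, adjusted p 0.00745), a call lost without Nr1d1+/+ replicate 2 (adjusted p 0.0577), whereas the folds of Birc5 were above 0. Fibroblast markers had 1 higher of 10 tested, cornified epidermis markers 1 of 3, skeletal muscle markers 3 of 4 and B cell markers 1 of 1. The summed muscle level was high in Nr1d1-/- replicate 1 alone, at 742 CPM against 3.78 CPM in Nr1d1-/- replicate 2. These marker values stand beside the differences in Bcl2a1b and Casp4, which white blood cells express, and beside Birc5. Their part in the levels of those genes was not tested.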

How the data were processed

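RNA from mammary tumours was isolated with Trizol, and a stranded Clontech SMARTer kit was used for the libraries, per the labels' protocols. The submitters' processing notes name TopHat and mm10. Versions, the counting program, its annotation and whether it used strand were not given in the sources used here. The authors deposited 1 table of whole-number counts by gene symbol for each library, with no normalisation. All else was computed here.

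The members, lists, motifs and tests were chosen with earlier results of these data known. Genes were filtered with filterByExpr (minimum count 10), which kept 14801 genes and 43 of 47 members. Counts were tested with edgeR 4.0.16 (quasi-likelihood F test with legacy=FALSE, TMM, a single term for genotype, which left 2 residual degrees of freedom, biological coefficient of variation 0.249) in R 4.3.3. Benjamini-Hochberg adjustment ran over all tested genes. The SE of a log2 fold was its size divided by the square root of F. The script was checked on simulated counts.

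Genes described per sample were those that passed and the central genes of each role, chosen by name; of each pathway list up to 4 and of each cell list up to 2 passing genes were named, lowest p first. Lengths, GC content and coordinates came from GENCODE M21 (GRCm38, the assembly of mm10), using the longest basic transcript. All 47 members were annotated. Some genes are not reported here, and counts over the members include them. GC and length trends were natural splines (5 degrees of freedom each) of each library's log2 CPM deviation (prior count 2), passed to edgeR as offsets for 14651 genes. Alternatives were other scalings, filters and tools (DESeq2 1.42.0, limma 3.58.1), a replicate block, and leaving out each library.

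In depth, 1 count was worth 0.0732 and 0.062 CPM for the Nr1d1-/- pair of libraries, against 0.0473 and 0.0478 CPM for the Nr1d1+/+ pair, which sets a floor of 3 counts at 0.22, 0.186, 0.142 and 0.144 CPM in the same order. Such floors cover counting error only. Replicates of a genotype differed beyond counting error (chi-square per degree of freedom 55.9 in Nr1d1-/- and 43 in Nr1d1+/+), so the tables are not copies of 1 library; this does not show that they came from different mice.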

Additional observations from a re-analysis of the deposited data

How the results depend on the processing

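Over 640 values of single members under the alternatives, 550 kept direction and side of the threshold, 48 fell below it, 14 passed it and 28 changed sign, none of them a member called in the reported fit. Bak1, Bmf, Casp4, Birc6, Xiap and Cflar were called under every alternative run. Members called higher and lower, 9 and 11 as reported, were 7 and 16 with library size only and 7 and 4 without GC and length trends. Leaving out 1 library gave 5 to 9 higher and 5 to 11 lower, the fewest (5 and 5) without Nr1d1+/+ replicate 2; where that left 1 library in a genotype, it was assumed to vary like the other genotype. All genes called were 2446 higher and 2565 lower as reported, 1281 and 4410 with library size only, 1616 and 1639 without the trends, and 1036 to 2358 and 1170 to 2401 with 1 library left out. The members' median of -0.18 was -0.57 with library size only, which moves the median of all genes to -0.38, and -0.30 without the trends. The cause was not tested beyond these scalings.

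The labels do not say what the replicate numbers share, so the numbers were not taken as pairs. Same-numbered libraries deviated together with a correlation of 0.026 over tested genes. These genes come from the same 4 libraries, so the value cannot show whether the libraries were paired. A replicate block gave 9 higher and 11 lower members, with Bcl2l2 lost (adjusted p 0.055) and Casp12 gained (-1.01, 0.0262), and with the trends removed 7 and 6, with a median of -0.30. Counts over all genes were 2622 and 2704 with the block, and 1869 and 1890 with both.

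Signs changed for some members that had not passed. Without the trends these were Bik -0.32, Bcl2l11 0.18, Diablo 0.18, Htra2 -0.41 and Bbc3 -0.30, and with the block added -0.29, 0.20, 0.19, -0.41 and -0.31. Library size only turned Bcl2l15 to -0.22, Htra2 to -0.29 and Casp1 to -0.21; upper-quartile scaling turned Trp53 to 0.01 and Diablo to 0.00, and a minimum mean of 5 CPM turned Trp53 to 0.00. Leaving out 1 library, the folds ranged from -0.36 to 0.28 for Trp53, -0.51 to 0.69 for Bcl2l15, -0.07 to 0.22 for Htra2, -1.07 to 0.37 for Bcl2l14, -0.47 to 0.09 for Bcl2l11, -0.22 to 0.05 for Diablo, -0.59 to 0.01 for Bid and -0.53 to 0.03 for Bcl2l12. With 2 libraries a genotype, low genes such as Pmaip1 and Apaf1 are limited by depth.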
